A study of Mus musculus with 6 samples.

Results

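The genes described here encode the subunits of voltage-gated calcium channels, voltage-gated sodium channels and hyperpolarization-activated, cyclic nucleotide-gated (HCN) channels. They were chosen by symbol alone (Cacna1, Cacna2d, Cacnb, Cacng, Scn and Hcn genes), which gave 43 of the 37411 rows of the deposited gene table. Their RNA was measured in primary hippocampal neurons grown from newborn (P0) CD-1 IGS mice, an outbred stock, and used after 16 days in vitro. One group of 3 libraries (4, 5 and 6) came from neurons given 50 µM forskolin, a plant compound that activates adenylyl cyclase and so raises cyclic AMP, for 30 min. The other group of 3 libraries (1, 2 and 3) came from neurons given an equal volume of the solvent, DMSO. The comparison asks which transcripts differ soon after cyclic AMP rises. The labels do not say whether the libraries of a group came from separate cultures or litters, so p-values measure only the spread between these libraries, which may be technical.

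A calcium channel is built on a pore-forming alpha1 subunit, which sets the current type. Auxiliary beta and alpha2delta subunits carry it to the membrane and tune its gating, and most proteins of the gamma family act on AMPA-type glutamate receptors instead. Sodium channels pair a pore-forming alpha subunit, which drives the upstroke of the action potential, with beta subunits that set gating and adhesion. HCN channels open on hyperpolarization, bind cyclic AMP directly and help to set the resting potential and the integration of inputs in hippocampal dendrites. Several of these proteins are known to be regulated by cyclic AMP or protein kinase A at the level of the channel itself. The counts describe RNA only.

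Total counts ranged from 28342764 to 47548379 per library. Forskolin library 6 stood apart from its group: on the first principal component, which held 58.5% of the variance of log2 CPM, it lay at -44.15, inside the DMSO range of -45.72 to -24.78, while forskolin libraries 4 and 5 lay at 66.26 and 73.65. Its label was nevertheless matched by the immediate-early gene Fos, at 448 CPM (counts scaled to library size) against a DMSO range of 101 to 186 CPM, with 831 CPM in library 4 and 902 CPM in library 5. Of 6 cAMP-responsive genes used as a check of the treatment (Fos, Fosb, Nr4a1, Arc, Egr1, Crem), 5 were higher in every forskolin library than in every DMSO library, and Fos and Fosb passed the test. The exception was Egr1, which in library 6, at 115 CPM, lay inside the DMSO range of 83.45 to 123.5 CPM. In libraries 4 and 5 Egr1 was above that range, at 142.5 and 192.9 CPM. The 14 neuron markers were all measured, with a summed level of 4779 to 6118 CPM in the DMSO libraries, and the 12 astrocyte markers, also all measured, summed to 8832 to 9373 CPM there. Because library 6 stands apart, the fold changes of the channel genes and the counts of calls are given with all 6 libraries and again without it.

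Of the 43 genes, 36 held enough counts to be tested. Of these 36, 4 fell and 0 rose after forskolin in edgeR's quasi-likelihood test (Benjamini-Hochberg adjusted p-value under 0.05 over all 16233 tested genes). Over all tested genes, 1.51% passed in either direction, 1.34% lower and 0.172% higher. The 4 genes that fell were Hcn2, Cacnb1, Cacna1g and Cacng8, which belong to 4 different classes: an HCN pore, a calcium channel beta subunit, a T-type calcium channel pore and an AMPA receptor auxiliary protein. At an unadjusted p-value under 0.05, 10 of the 36 were lower and 1 was higher, against 11.7% and 10.6% of all tested genes, and DESeq2 called 8 lower and 1 higher, against 6.03% and 4.9% of all genes. The median log2 fold change over the 36 was -0.32, with a range from -0.95 to 1.91, against 0.02 over all tested genes; 27 of the 36 had a negative value and 9 a positive one. In 12 of the 36, every forskolin library lay below every DMSO library, against 16.2% of all tested genes, and in 0 of the 36 every forskolin library lay above, against 10.3%. In bulk RNA, fewer cells of a type and less RNA per cell cannot be told apart.

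Without library 6, edgeR called 22 of 37 testable members lower and 1 higher, against 17.1% and 16.5% of all genes, with a members' median of -0.62 on the log2 scale. Leaving out any other library ended the 4 calls: 0 members, and 0 genes of the whole table, passed in edgeR without library 1, 2, 3, 4 or 5, where 8 to 12 members had an unadjusted p-value under 0.05, against 11.6 to 19.1% of all genes. In these 5 fits the log2 fold changes were close to those with all 6 libraries, at -0.80 to -0.96 for Hcn2, -0.76 to -0.92 for Cacnb1, -0.72 to -0.83 for Cacna1g and -0.76 to -0.87 for Cacng8. limma-voom with library quality weights called 21 of the 36 lower and 1 higher (20.9% and 21% of all genes). RLE factors gave 2 lower (0.696%), library size alone 6 (1.82%), no low-count filter 5 of 43 (0.623%) and a mean CPM of at least 1 gave 4 of 34 (1.51%).

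A second setting that ended the calls concerns base composition. With each library's trend of expression on transcript GC content removed, edgeR called 0 members and 0 genes of the whole table, 3 of the 36 members had an unadjusted p-value under 0.05 (2 lower, 1 higher) against 12% of all genes, and the members' median was -0.19. The log2 fold changes of Hcn2 and Cacng8 turned from negative to positive in that fit. With both changes made together, that is, GC trend removed and library 6 left out, 17 members were lower and 1 higher, against 16.1% and 16% of all genes, with a median of -0.45.

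**Figure D1:**
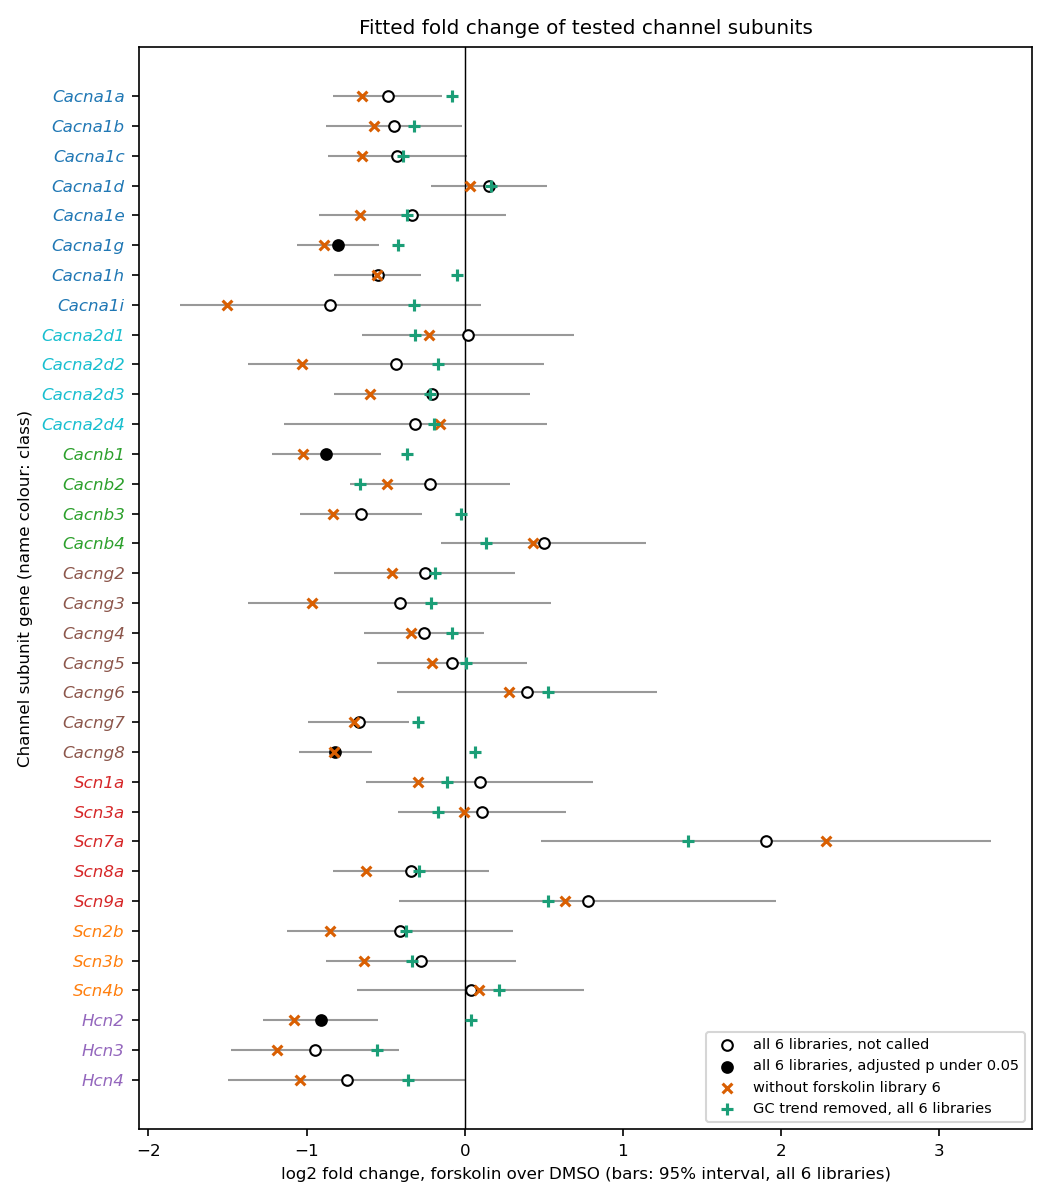
Log2 fold change, forskolin over DMSO, of 34 of the tested channel genes from edgeR with all 6 libraries (bars: 95% interval), without forskolin library 6, and with the GC trend removed. Hcn2, Cacnb1, Cacna1g and Cacng8 passed the test with all 6 libraries, and the values of Hcn2 and Cacng8 lie near 0 with the GC trend removed.

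The sequences shown first are promoter windows of 3 genes. Each runs from 250 bases before to 50 after the annotated start (RefSeq, GRCm38.p6, read 5′ to 3′ on the gene's strand). Hcn2 and Cacnb1 are among the genes that fell. Cacna1i had the largest fold decrease without library 6 among the genes tested with all 6. Capitals mark GGGCGG, the GC box, and TGACG, the core of the cAMP response element, on either strand. The Hcn2 window is chr10:79716384-79716683 on the plus strand, the Cacnb1 window chr11:98022578-98022877 on the minus strand and the Cacna1i window chr15:80286988-80287287 on the plus strand.
Hcn2: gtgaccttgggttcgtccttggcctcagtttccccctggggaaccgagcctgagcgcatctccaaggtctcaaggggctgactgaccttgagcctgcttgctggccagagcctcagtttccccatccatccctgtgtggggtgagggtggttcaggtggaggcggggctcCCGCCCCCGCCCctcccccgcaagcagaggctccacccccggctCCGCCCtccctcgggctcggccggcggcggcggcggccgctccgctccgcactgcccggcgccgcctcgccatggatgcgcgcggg
Cacnb1: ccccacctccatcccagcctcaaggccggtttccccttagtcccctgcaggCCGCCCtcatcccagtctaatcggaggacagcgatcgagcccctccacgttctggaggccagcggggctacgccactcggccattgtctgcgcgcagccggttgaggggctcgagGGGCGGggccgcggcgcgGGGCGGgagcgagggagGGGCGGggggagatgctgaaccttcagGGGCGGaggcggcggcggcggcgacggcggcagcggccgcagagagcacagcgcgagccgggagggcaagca
Cacna1i: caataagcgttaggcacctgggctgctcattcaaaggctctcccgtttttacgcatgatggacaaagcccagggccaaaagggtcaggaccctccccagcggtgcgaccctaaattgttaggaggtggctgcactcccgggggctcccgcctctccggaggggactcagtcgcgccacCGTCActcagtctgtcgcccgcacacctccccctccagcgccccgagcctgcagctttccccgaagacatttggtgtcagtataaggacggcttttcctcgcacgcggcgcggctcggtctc
The Hcn2 window held 3 GGGCGG matches in 72.3% GC, the printed Cacnb1 window 5 in 73.7% GC, and neither held TGACG. A window at another annotated start of Cacnb1 (chr11:98018323-98018622), not printed, held 0 GGGCGG and 0 TGACG matches in 59.3% GC. The window of Cacng8, which also fell, was not printed and held 0 GGGCGG and 0 TGACG matches in 50% GC. No window was at hand for Cacna1g, the remaining gene that fell. The Cacna1i window held 1 TGACG match, read as CGTCA on the printed strand, and 0 GGGCGG matches. Windows were at hand for 31 of the 43 genes, 41 windows in all, since some genes have several starts. The full palindrome TGACGTCA was in 0 of these 41, against 1.79% of the 32851 windows of all genes; TGACG, which the palindrome contains, was in 6 of the 41 (14.6%, against 20.8% of all), and GGGCGG was in 18 (43.9%, against 35.7%). The median GC content was 61% for the 41 windows and 52.7% for all windows.

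The HCN family was the class with the most negative median with all 6 libraries. Hcn2 (chr10:79716634-79736108, GRCm38 as annotated in GENCODE M21), a fast, strongly cAMP-gated channel, was the most abundant of its family per length, at 20.5 ± 1.95 CPM per kb of transcript in the DMSO libraries (SD, n = 3), with Hcn3 at 4.28 ± 0.687 and Hcn4 at 1.20 ± 0.314. The DMSO ranges of these 3 levels did not overlap. Hcn2 stood at 61.5, 72.7 and 62.3 CPM in DMSO libraries 1, 2 and 3 and at 31.3, 31.3 and 42.0 CPM in forskolin libraries 4, 5 and 6. Every forskolin library was below every DMSO library, and library 6 was the nearest to them. Hcn2 fell by 0.91 on the log2 scale (SE 0.153, adjusted p = 0.0458 in edgeR's quasi-likelihood test). The log2 value was -1.08 without library 6 (adjusted p = 0.00309), 0.04 after GC removal (adjusted p = 0.954), and -0.36 with both changes (adjusted p = 0.0433). Its longest transcript is 65.38% GC, the highest of the 36 tested members.

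Hcn3, a slowly activating and weakly cAMP-sensitive family member, had the most negative fold change of the 36 with all 6 libraries. It stood at 14.5, 19.9 and 16.9 CPM in the DMSO libraries and at 7.48, 7.76 and 11.4 CPM in the forskolin libraries, with no overlap. The log2 fold change was -0.95 (SE 0.223, 95% interval -1.48 to -0.42), which missed the threshold (edgeR adjusted p = 0.0958), while DESeq2 gave an adjusted p of 0.00706. Without library 6 it was -1.18 (edgeR adjusted p = 0.00564), after GC removal -0.55 (adjusted p = 0.443), and with both changes -0.90 (adjusted p = 0.0118). The span of Hcn3 overlaps that of Pklr on the opposite strand, and whether strand was used in counting is not given in the sources used here.

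Hcn4, the slow, cAMP-sensitive pacemaker channel best known from the heart, was scarce. It stood at 5.12, 8.53 and 8.36 CPM in the DMSO libraries and at 4.01, 3.17 and 5.94 CPM in the forskolin libraries. Libraries 4 and 5 were below all DMSO libraries and library 6 lay among them, and the log2 fold change was -0.75 (SE 0.317, edgeR adjusted p = 0.227) and -1.04 without library 6 (adjusted p = 0.0324), a call that ended with the GC trend removed as well (-0.77, adjusted p = 0.0795). The share of Hcn2 in the family's length-scaled level overlapped between groups, at 68.9 to 75.3% in the DMSO libraries and 64.9 to 70.3% in the forskolin libraries.

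**Figure D2:**
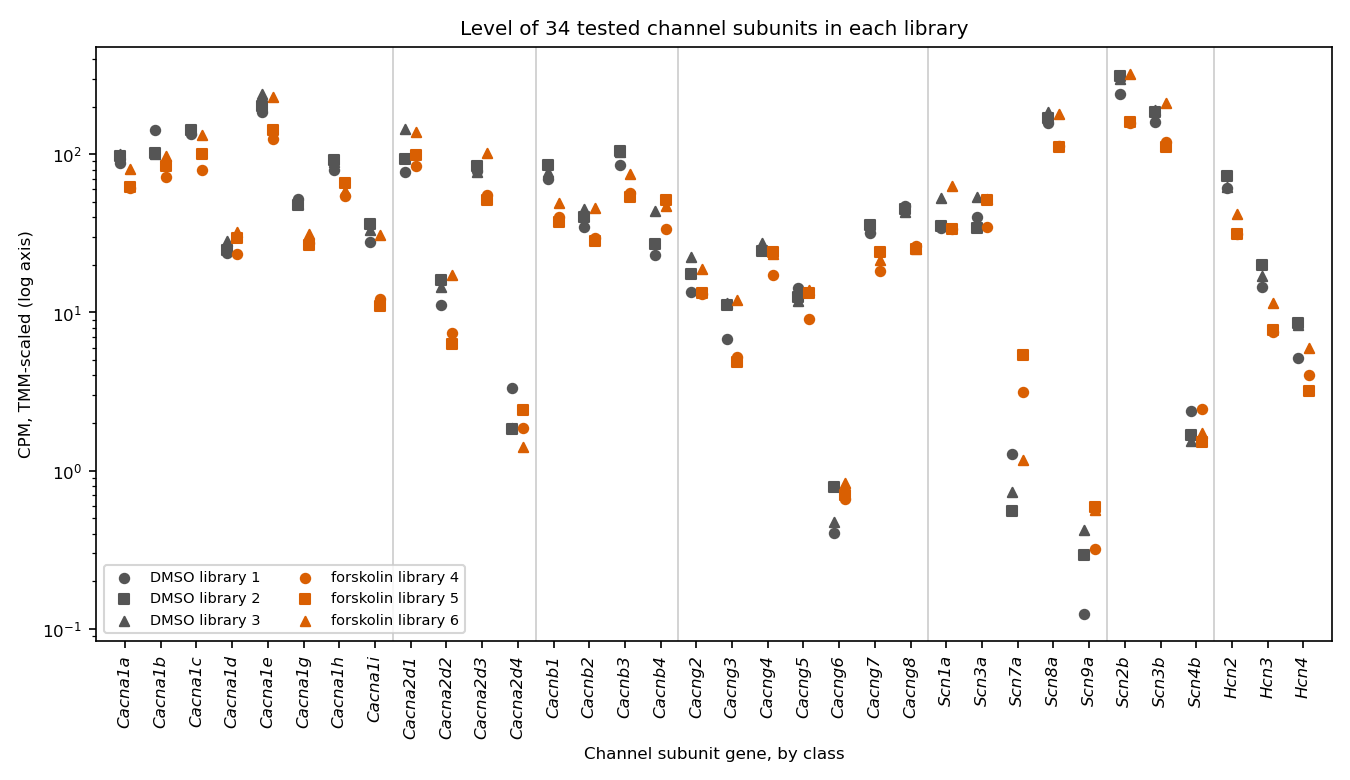
CPM (log axis) in each of the 6 libraries for 34 of the tested channel genes, grouped by subunit class, with DMSO libraries in grey and forskolin libraries in orange. In Hcn2, Cacnb1, Cacna1g and Cacng8 all forskolin points lie below all DMSO points, while in Scn2b and Scn3b the point of library 6 lies above every DMSO point.

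Among the calcium channel pores, the low-voltage-activated T-type genes Cacna1g, Cacna1h and Cacna1i, whose channels open near rest and support burst firing, had the 3 most negative fold changes with all 6 libraries. This order did not hold in other fits. Without library 6, Cacna1h stood at -0.55, against -0.66 for Cacna1e, -0.65 for Cacna1a and Cacna1c and -0.58 for Cacna1b. With the GC trend removed, Cacna1g was at -0.42, Cacna1i at -0.32 and Cacna1h at -0.05, against -0.39 for Cacna1c and -0.37 for Cacna1e. With both changes, Cacna1g was at -0.60 and Cacna1h at -0.16, against -0.68 for Cacna1e, while Cacna1i was at -1.15. Cacna1g (chr11:94408391-94474198) stood at 52.5, 47.6 and 48.6 CPM in the DMSO libraries and at 27.5, 26.6 and 31.2 CPM in the forskolin libraries. The 3 forskolin values lay close together, library 6 included, and far below the DMSO values. Cacna1g fell by 0.80 on the log2 scale (SE 0.109, edgeR adjusted p = 0.0343) and by 0.89 without library 6 (adjusted p = 0.00327). Removing the GC trend gave -0.42 (adjusted p = 0.375), and, with both changes, -0.60 (adjusted p = 0.00639).

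Cacna1h, the T-type pore sensitive to nickel, stood at 80.0, 92.4 and 89.1 CPM in the DMSO libraries and at 54.8, 65.5 and 58.2 CPM in the forskolin libraries. The groups did not overlap and library 6 lay between libraries 4 and 5, but the log2 fold change of -0.55 (SE 0.116, 95% interval -0.83 to -0.28) missed the threshold in edgeR (adjusted p = 0.0759) and was -0.05 with the GC trend removed. DESeq2 gave an adjusted p of 0.00362 for it, and edgeR without library 6 one of 0.0163, a call that ended with the GC trend removed as well (-0.16, adjusted p = 0.410). Its span overlaps that of Tpsg1 on the opposite strand. Cacna1i, the slowest of the T-type pores, stood at 27.8, 36.5 and 33.3 CPM in the DMSO libraries and at 12.2, 11.0 and 31.0 CPM in the forskolin libraries. Libraries 4 and 5 were far below the DMSO range and library 6 was inside it. The log2 fold change was -0.85 with all libraries (SE 0.401, edgeR adjusted p = 0.264) and -1.50 without library 6 (adjusted p = 0.00309); with the GC trend removed it was -0.32 (adjusted p = 0.748), and with both changes -1.15 (adjusted p = 0.00525).

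The high-voltage-activated pores did not pass the test with all 6 libraries. Cacna1a, the P/Q-type pore of presynaptic terminals, stood at 87.6, 97.0 and 101 CPM in the DMSO libraries and at 61.0, 61.9 and 81.1 CPM in the forskolin libraries. Cacna1b, the N-type pore, stood at 142, 102 and 101 CPM against 71.9, 84.2 and 97.0 CPM. Cacna1c, the main L-type pore of the brain, stood at 135, 143 and 142 CPM against 80.0, 101 and 132 CPM. In each of these 3 genes the groups did not overlap and library 6 was the forskolin library closest to the DMSO values. Their log2 fold changes were -0.49 (SE 0.145), -0.45 (SE 0.182) and -0.43 (SE 0.186), with edgeR adjusted p-values of 0.142, 0.214 and 0.234, and without library 6 of 0.00603, 0.0471 and 0.0109. With the GC trend removed, Cacna1a was at -0.08, Cacna1b at -0.32 and Cacna1c at -0.39 (edgeR adjusted p = 0.859, 0.470 and 0.438). With both changes Cacna1a (-0.35, adjusted p = 0.0586) and Cacna1b (-0.45, adjusted p = 0.0733) no longer passed, while Cacna1c did (-0.60, adjusted p = 0.0153). Cacna1e, the R-type pore, stood at 185, 202 and 240 CPM in the DMSO libraries and at 124, 143 and 231 CPM in the forskolin libraries, so that library 6 overlapped the DMSO range. It had a log2 fold change of -0.33 (95% interval -0.92 to 0.26, edgeR adjusted p = 0.450), and of -0.66 without library 6 (adjusted p = 0.0153). With the GC trend removed it was at -0.37 (edgeR adjusted p = 0.511), and with both changes at -0.68 (adjusted p = 0.0124).

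Cacna1d, the L-type pore that opens at lower voltages, was the exception among the pores. It stood at 23.8, 24.7 and 28.3 CPM in the DMSO libraries and at 23.4, 29.7 and 32.3 CPM in the forskolin libraries. The groups overlapped, and the log2 fold change of 0.15 had a 95% interval of -0.21 to 0.52 (edgeR adjusted p = 0.578) and was 0.04 without library 6. As a share of the length-scaled level of all alpha1 genes, Cacna1d made up 3.55 to 4.01% in the DMSO libraries and 5.3 to 6.27% in the forskolin libraries, and Cacna1g 7.95 to 9% and 5.91 to 7.61%. These shares did not overlap between groups and include library 6, but the shares of a class depend on each other. That of Cacna1d was higher although its CPM overlapped between groups. Per length, the DMSO levels ran from Cacna1e (14.0 ± 1.88 CPM per kb) through Cacna1a (12.01 ± 0.871), Cacna1b (11.8 ± 2.38), Cacna1c (10.6 ± 0.337) and Cacna1h (10.6 ± 0.784) to Cacna1g (5.91 ± 0.310), Cacna1i (3.33 ± 0.449) and Cacna1d (2.65 ± 0.243), each as SD with n = 3. The first 5 overlapped their neighbours in that order, Cacna1g was clear of those on both sides, and Cacna1i and Cacna1d overlapped in range.

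**Figure D3:**
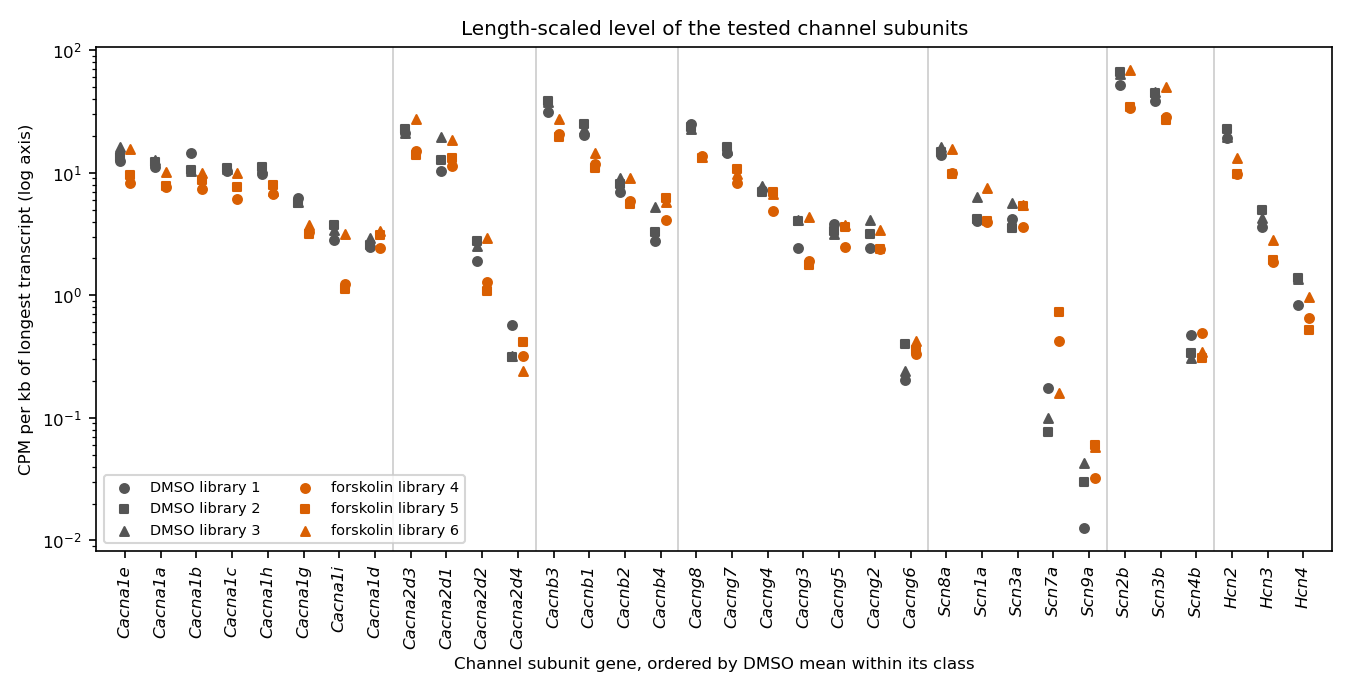
Levels per length (CPM per kb of the longest annotated transcript, log axis) of the same 34 channel genes in the DMSO and forskolin libraries, ordered within each class. In the DMSO libraries, Scn2b and Scn3b are at the top, and Scn9a and Scn7a are at the bottom. In the forskolin libraries the mean of Scn7a, 0.439 CPM per kb, is above that of Cacna2d4, 0.325.

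Of the 4 beta subunits, which bind the inner face of the alpha1 pore, Cacnb1 fell. Cacnb1 (chr11:98001508-98023034) stood at 69.5, 85.3 and 77.5 CPM in the DMSO libraries and at 40.0, 37.2 and 49.5 CPM in the forskolin libraries. The groups were separate, with library 6 the highest of its group. Cacnb1 fell by 0.88 on the log2 scale (SE 0.146, edgeR adjusted p = 0.0445) and by 1.02 without library 6 (adjusted p = 0.00356). Removing the GC trend gave -0.37 (adjusted p = 0.477) and -0.64 with both changes (adjusted p = 0.00986). Cacnb3, the most abundant beta subunit per length (35.8 ± 3.90 CPM per kb in DMSO, against 22.8 ± 2.34 for Cacnb1), stood at 85.5, 104 and 104 CPM in the DMSO libraries and at 57.0, 54.0 and 75.3 CPM in the forskolin libraries. Its groups did not overlap either, but its log2 fold change of -0.66 (SE 0.163) missed the threshold (edgeR adjusted p = 0.105) and was -0.03 after GC removal (adjusted p = 0.966). It passed in DESeq2 (adjusted p = 0.0196), and in edgeR without library 6 at -0.83 (adjusted p = 0.00535), but not with both changes (-0.37, adjusted p = 0.0792).

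The transcripts of the other beta subunits, Cacnb2 and Cacnb4, are poor in GC (38.97% and 40.47%). Cacnb4, a subunit linked to absence seizures in the lethargic mouse, stood at 22.9, 27.1 and 43.5 CPM in the DMSO libraries and at 33.6, 51.5 and 47.3 CPM in the forskolin libraries. The groups overlapped through library 3, and the log2 fold change was 0.50 (SE 0.273, 95% interval -0.15 to 1.15, edgeR adjusted p = 0.315), 0.43 without library 6 (adjusted p = 0.305) and 0.14 after GC removal. Cacnb2 stood at 34.9, 40.4 and 45.2 CPM in the DMSO libraries and at 29.5, 28.1 and 45.9 CPM in the forskolin libraries, library 6 being the highest of all. Its log2 fold change was -0.22 (edgeR adjusted p = 0.564), -0.49 without library 6 (adjusted p = 0.0310) and -1.06 once the GC trend was removed as well (adjusted p = 0.00439). Within the class, the length-scaled share of Cacnb1 was 30.4 to 33.7% in the DMSO libraries and 25.6 to 27.7% in the forskolin libraries, that of Cacnb3 50.6 to 51.1% and 46.4 to 49%, that of Cacnb2 10.8 to 12% and 13.2 to 16%, and that of Cacnb4 4.42 to 7.05% and 9.6 to 14.7%. None of these shares overlapped between groups, but the shares of a class add up to the whole in each library. A lower share of the GC-rich Cacnb1 and Cacnb3 therefore forces a higher share of Cacnb2 and Cacnb4 together. Cacnb2 itself had a negative log2 fold change, and its CPM overlapped between groups. How often such shares separate in other gene classes was not tested.

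No alpha2delta gene passed the test with all 6 libraries; these subunits sit on the outer face of the channel, and Cacna2d1 and Cacna2d2 bind gabapentin. Cacna2d3 was the most abundant per length (21.6 ± 0.877 CPM per kb in DMSO), followed by Cacna2d1 (14.2 ± 4.78), Cacna2d2 (2.40 ± 0.440) and Cacna2d4 (0.404 ± 0.149). Cacna2d3 stood at 78.4, 83.7 and 77.8 CPM in the DMSO libraries and at 55.3, 51.3 and 101 CPM in the forskolin libraries. Libraries 4 and 5 were below the DMSO range and library 6 above it, which gave -0.21 on the log2 scale with library 6 (edgeR adjusted p = 0.661) and -0.60 without it (adjusted p = 0.00604). Cacna2d2 showed the same split, at 11.1, 16.1 and 14.6 CPM against 7.46, 6.32 and 17.2 CPM, with -0.43 (edgeR adjusted p = 0.533) with library 6 and -1.03 without it (adjusted p = 0.0129). With both changes Cacna2d3 was at -0.59 and Cacna2d2 at -0.84 (edgeR adjusted p = 0.005996 and 0.02236). Cacna2d1 stood at 77.1, 94.0 and 145 CPM against 84.2, 98.5 and 138 CPM, with a log2 fold change of 0.02 (95% interval -0.65 to 0.69), which was negative, -0.31, with the GC trend removed and -0.07 on library size alone. Without library 6 it was -0.23 (edgeR adjusted p = 0.532), and with both changes it passed at -0.63 (adjusted p = 0.0259). Cacna2d4 was under 4 CPM in every library, with -0.31 (95% interval -1.14 to 0.52), and -0.16 without library 6.

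In the gamma family, Cacng8 fell. Cacng2, Cacng3, Cacng4 and Cacng8 encode TARPs, which traffic AMPA receptors to the synapse and slow their gating, and Cacng8 is the TARP most associated with the hippocampus. Cacng8 (chr7:3390683-3415648) stood at 47.4, 45.1 and 43.0 CPM in the DMSO libraries and at 26.2, 25.2 and 25.4 CPM in the forskolin libraries. The spread within each group was small, and library 6 lay between libraries 4 and 5. Cacng8 fell by 0.82 on the log2 scale (SE 0.097, edgeR adjusted p = 0.0277), the smallest adjusted p-value among the members, and by 0.83 without library 6 (adjusted p = 0.00356). Removing the GC trend turned the value to 0.06 (adjusted p = 0.858), and both changes together gave -0.13 (adjusted p = 0.303). Cacng8 transcripts are 65.05% GC, second among the tested members to Hcn2.

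Cacng7, an atypical TARP, stood at 31.8, 35.5 and 34.1 CPM in the DMSO libraries and at 18.3, 23.9 and 21.5 CPM in the forskolin libraries. The groups did not overlap, and the log2 fold change of -0.67 (SE 0.135) missed the threshold in edgeR (adjusted p = 0.0703) but passed in DESeq2 (adjusted p = 0.00227) and in edgeR without library 6 (adjusted p = 0.0145). It was -0.29 with the GC trend removed (adjusted p = 0.465) and -0.40 with both changes (adjusted p = 0.0906). Cacng3 stood at 6.78, 11.2 and 11.4 CPM against 5.27, 4.88 and 12 CPM, with -0.41 (edgeR adjusted p = 0.564) with library 6 and -0.97 without it (adjusted p = 0.0335), a call that ended with the GC trend removed as well (-0.81, adjusted p = 0.0598). Cacng4 had a narrow gap between its groups, 24.6 to 27.5 CPM against 17.1 to 24.2 CPM, and a log2 fold change of -0.26 (SE 0.161, edgeR adjusted p = 0.372), or -0.34 without library 6 (adjusted p = 0.158). Cacng2 (stargazin), Cacng5 and Cacng6 overlapped between groups, with log2 fold changes of -0.25, -0.08 and 0.40, and of -0.46, -0.21 and 0.28 without library 6. Cacng6 stood at 0.406, 0.788 and 0.477 CPM in the DMSO libraries and at 0.658, 0.705 and 0.836 CPM in the forskolin libraries. Per length, Cacng8 led the family in the DMSO libraries at 23.8 ± 1.17 CPM per kb, followed by Cacng7 at 15.3 ± 0.847 and Cacng4 at 7.36 ± 0.430, while Cacng3, Cacng5 and Cacng2 overlapped at 3.53, 3.46 and 3.24. The share of Cacng4 in the family's length-scaled level was 12.1 to 13.6% in the DMSO libraries and 14.4 to 17.7% in the forskolin libraries.

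Of the sodium channel pores, 0 of 6 tested genes passed with all 6 libraries in edgeR; 1, Scn7a, had an unadjusted p-value under 0.05 and also passed in DESeq2. Scn8a, the pore of mature axon initial segments and nodes, was the most abundant member of this class per length (14.9 ± 1.15 CPM per kb in DMSO). It stood at 159, 168 and 185 CPM in the DMSO libraries and at 113, 111 and 180 CPM in the forskolin libraries. Libraries 4 and 5 were below the DMSO range and library 6 was inside it, so that the log2 fold change was -0.34 with library 6 (SE 0.208, edgeR adjusted p = 0.362) and -0.62 without it (adjusted p = 0.00702). With the GC trend removed as well, Scn8a was at -0.56 (edgeR adjusted p = 0.00997). Scn1a, the pore of fast-spiking interneurons, stood at 34.0, 35.1 and 53.1 CPM in the DMSO libraries and at 33.5, 33.8 and 63.3 CPM in the forskolin libraries, with a log2 fold change of 0.09 (95% interval -0.62 to 0.81). It turned to -0.29 without library 6 (edgeR adjusted p = 0.304) and to -0.52 after GC removal as well (adjusted p = 0.0332). Scn3a, the embryonic form, stood at 40.2, 34.2 and 53.9 CPM against 34.8, 51.5 and 52.2 CPM, with 0.11 (95% interval -0.42 to 0.64) and a value of -0.004 without library 6. The pore gene that was most abundant of all per length, listed under the older symbol Scn2a1 and so outside the symbol rule, stood at 326, 304 and 434 CPM in the DMSO libraries and at 272, 348 and 432 CPM in the forskolin libraries (39.7 CPM per kb in DMSO). Its groups overlapped, and the log2 fold change was -0.02 (edgeR adjusted p = 0.972), -0.21 without library 6 (adjusted p = 0.411) and, with both changes, -0.44, which passed (adjusted p = 0.0407). The length-scaled share of Scn8a among the member pores, Scn2a1 left out, was 55.9 to 63.6% in the DMSO libraries and 47.6 to 53.4% in the forskolin libraries.

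Scn7a, a pore-like protein that is gated by extracellular sodium and found mainly in glia and sensory organs, had the largest positive fold change of the members. It stood at 1.28, 0.558 and 0.729 CPM in the DMSO libraries and at 3.12, 5.38 and 1.17 CPM in the forskolin libraries. Libraries 4 and 5 were above the DMSO range and library 6 inside it, with a log2 fold change of 1.91 (SE 0.599, 95% interval 0.49 to 3.33, edgeR adjusted p = 0.153), 2.29 without library 6 (adjusted p = 0.0100) and 1.42 after GC removal (adjusted p = 0.410). With both changes the log2 fold change was 1.77, which passed (edgeR adjusted p = 0.0221). The levels of this gene moved across the libraries alongside the marker lists for oligodendrocyte-lineage cells and microglia. The 12 oligodendrocyte-lineage markers summed to 824 to 917 CPM in the DMSO libraries and to 1113, 1602 and 649 CPM in libraries 4, 5 and 6, and the 12 microglia markers, none at 0, to 23.0 to 35.3 CPM and to 227, 377 and 25.1 CPM (exact two-sided permutation tests, p = 0.5 and p = 0.2, smallest possible 0.1). Their part in the result was not tested. Scn9a, best known from sensory neurons, was low and overlapped between groups, at 0.125 to 0.588 CPM over all libraries, with a log2 fold change of 0.78 (95% interval -0.41 to 1.97), and of 0.63 without library 6.

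The sodium channel beta subunits, immunoglobulin-fold proteins that bind the pore, held the most abundant members per length. Scn2b was at 60.8 ± 8.10 CPM per kb in the DMSO libraries and Scn3b at 42.8 ± 3.83, and their ranges did not overlap. Scn2b stood at 240, 311 and 298 CPM in the DMSO libraries and at 158, 159 and 321 CPM in the forskolin libraries. Scn3b stood at 159, 184 and 189 CPM against 119, 112 and 210 CPM. Both were well below the DMSO range in libraries 4 and 5 and above it in library 6, so that their log2 fold changes were -0.41 and -0.28 with library 6 (edgeR adjusted p = 0.440 and 0.539) and -0.85 and -0.64 without it (adjusted p = 0.00663 and 0.00841). Scn4b was under 3 CPM in every library, with a log2 fold change of 0.04 (95% interval -0.68 to 0.76), which was -0.08 on library size alone and 0.09 without library 6.

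Of the genes that were not tested, several were near the floor in every library. Cacna1f (retina) and Cacna1s (skeletal muscle) held 1 to 7 counts, Cacng1 (skeletal muscle) 0 to 4, Scn4a (skeletal muscle) 0 to 3, Scn10a (sensory neurons) 0 to 4 and Scn11a (sensory neurons) 4 to 11.

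**Figure D4:**
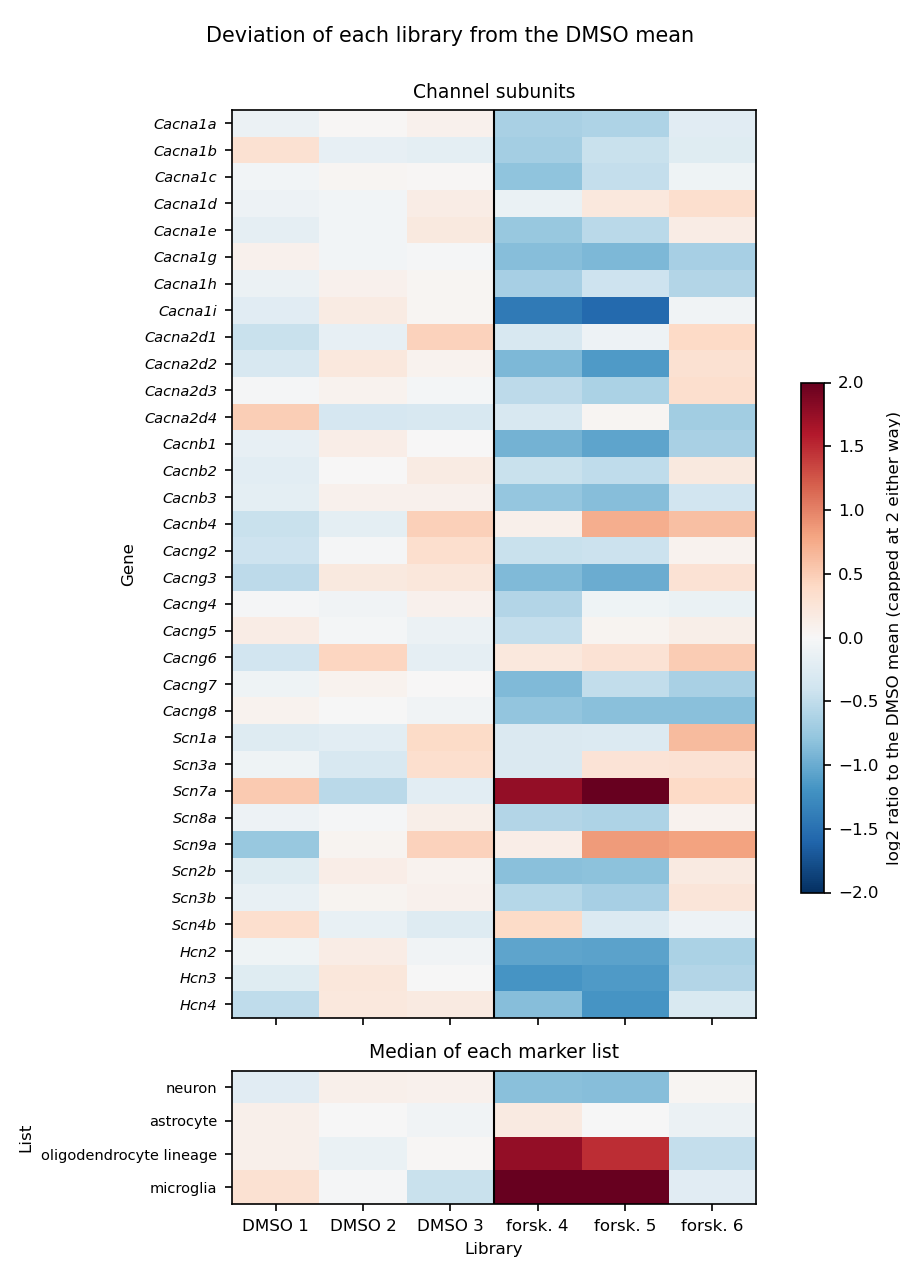
Log2 ratio of each library's CPM to the DMSO mean (0.1 CPM added) for the same 34 channel genes, with the medians of 4 marker lists for the same libraries; the colour scale is capped at 2 either way. Libraries 4 and 5 are mostly below 0 in the channel genes and library 6 is mixed; the neuron list follows the same pattern, and the microglia list is far above 0 in libraries 4 and 5 and near 0 in library 6.

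The difference between forskolin libraries ran through the classes. Library 4 lay below every DMSO library in 28 of the 36 genes (38.1% of all tested genes), library 5 in 27 (39.3%) and library 6 in 13 (35.3%), while library 6 lay above every DMSO library in 12 (29.5%) and inside the DMSO range in 11 (35.2%). Library 4 lay above every DMSO library in 2 of the 36 (37.5%) and library 5 in 4 (37.1%). Both of libraries 4 and 5 were below every DMSO library in 26 members (32.5% of all genes), and in 14 of these library 6 was not (16.3%). Among the 14 are Cacna1e, Cacna1i, Cacna2d2, Cacna2d3, Cacnb2, Cacng2, Cacng3, Hcn4, Scn1a, Scn2b, Scn3b and Scn8a. The other 12 are the genes without overlap between groups, which were below in library 6 too. Summed over the 43 members, the level was 2005, 2222 and 2364 CPM in libraries 1, 2 and 3, against 1388, 1502 and 2227 CPM in libraries 4, 5 and 6. The neuron marker list moved in the same way: it summed to 4779 to 6118 CPM in the DMSO libraries and to 3560, 3844 and 5703 CPM in libraries 4, 5 and 6 (exact two-sided permutation test, p = 0.3). Relative to the DMSO mean, the list's median on the log2 scale was -0.83, -0.85 and 0.04 in libraries 4, 5 and 6, against -0.61, -0.50 and 0.07 for the channel genes. Of the 14 neuron markers, 1 (Rbfox3) fell with all 6 libraries in edgeR, where 1.34% of all genes were called lower, and 9 were lower without library 6, where 17.1% were. Astrocyte markers summed to 8715, 9578 and 8652 CPM in the forskolin libraries (exact permutation p = 0.8). Within that list, genes lay on either side of the DMSO range in libraries 4 and 5: Gfap was at 2801 and 3003 CPM there (1097 to 2264 CPM in DMSO) and Aqp4 at 675 and 862 CPM (212 to 313 CPM), while Aldoc was at 957 and 944 CPM (1677 to 1856 CPM) and Glul at 867 and 903 CPM (1496 to 1682 CPM). In library 6 these 4 genes stood at 1044, 243, 1659 and 1577 CPM, near or inside the DMSO ranges. Vascular and fibroblast markers summed to 350, 154 and 103 CPM against 113 to 267 CPM in DMSO (exact permutation p = 0.7). Adjusted over the 5 marker lists, these p-values were 0.75 to 0.8. Mitochondrial ribosomal RNA made up 14.0 to 23.7% of counts in the DMSO libraries and 26.9 to 33.3% in the forskolin libraries. The part of these quantities in the results was not tested.

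Base composition moved with the fold changes. Over the 36 tested members, the log2 fold change had a Spearman correlation of -0.793 and a Pearson correlation of -0.707 with the GC content of the longest transcript, and over the 15770 tested genes with a GC value the correlations were -0.515 and -0.409. These are correlations across genes measured in the same libraries, and genes are not independent replicates. Without library 6 they were -0.618 and -0.584 over the members. The 12 members lowest in GC (up to 49.6%) had a median log2 fold change of 0.06, the middle 12 (50.35 to 55.83%) one of -0.33 and the 12 highest (57.42 to 65.38%) one of -0.77. Without library 6 the 3 medians were -0.26, -0.52 and -0.86, so that the sign turned for the members lowest in GC. All 4 genes that fell and 9 of the 12 without overlap were in the last of these. With the GC trend removed the 3 medians were -0.19, -0.19 and -0.19. The part of base composition in the differences between groups was not tested.

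**Figure D5:**
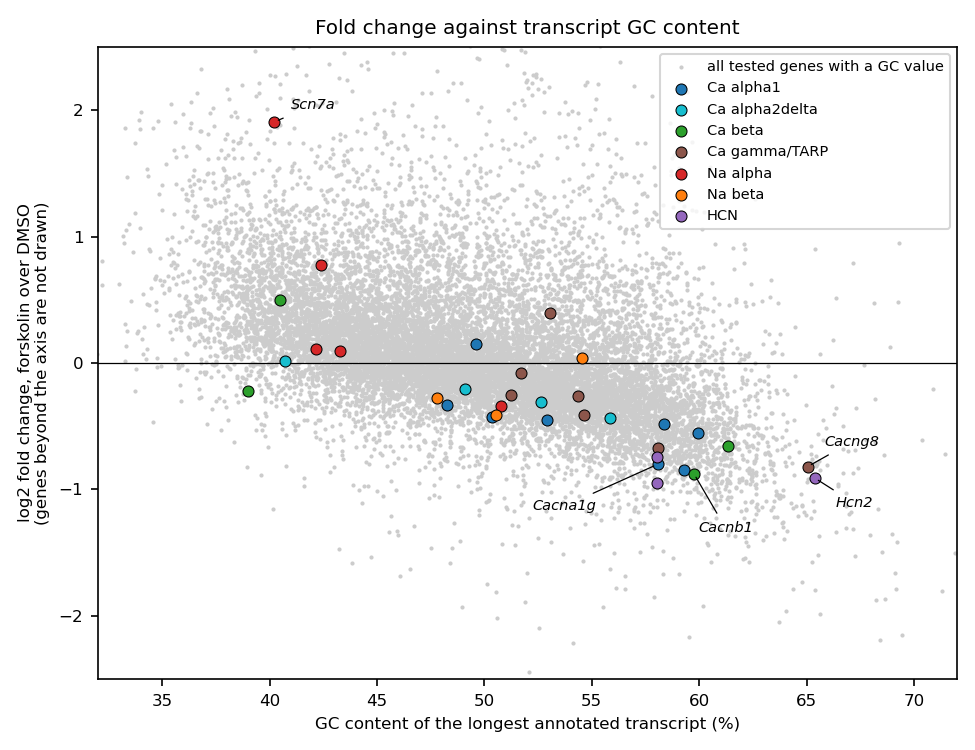
Log2 fold change (forskolin over DMSO, all 6 libraries) against the GC content of the longest annotated transcript, for all tested genes with a GC value (grey) and for 34 of the channel genes coloured by class. The channel genes follow the slope of the grey cloud, from Scn7a at the upper left to Hcn2 and Cacng8 at the lower right.

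Genes whose proteins bind these channels or act on them were taken from a separate list. That list also held the sodium leak channel gene Nalcn, with Unc79, Unc80 and Fam155a of its complex. Of 34 partner genes (mainly anchoring, scaffold and calcium-sensor proteins, FGF homologous factors and AMPA receptor auxiliary proteins), 30 were tested. Of these, 3 fell and 0 rose in edgeR, against 1.34% and 0.172% of all genes, with a median log2 fold change of -0.27. At an unadjusted p-value under 0.05, 6 were lower and 0 higher, against 11.7% and 10.6% of all tested genes, and DESeq2 called 4 lower and 0 higher, against 6.03% and 4.9%. Sptbn4, the spectrin that anchors sodium channels at the axon initial segment, stood at 66.4, 69.1 and 63.0 CPM in the DMSO libraries and at 34.5, 29.7 and 31.0 CPM in the forskolin libraries. The groups were far apart, and Sptbn4 fell by 1.06 on the log2 scale (edgeR adjusted p = 0.0204). Cnih2, a cornichon protein that joins AMPA receptors together with TARPs, stood at 253, 252 and 231 CPM against 126, 132 and 150 CPM and fell by 0.85 (edgeR adjusted p = 0.0371). Cabp1, a calmodulin-like sensor of calcium channels, stood at 24.6, 23.5 and 21.7 CPM against 11.6, 10.6 and 14.5 CPM and fell by 0.93 (edgeR adjusted p = 0.0469). After removal of the GC trend, the values of these 3 genes were -0.28, -0.15 and -0.81 (adjusted p = 0.443, 0.707 and 0.191). Without library 6 they were -1.06, -0.94 and -1.08 (adjusted p = 0.00309, 0.00306 and 0.00354), and 16 of the 30 partners were lower and 1 higher, against 17.1% and 16.5% of all genes. With both changes, 20 of the 30 partners were lower and 1 higher, against 16.1% and 16% of all genes.

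The authors' deposited table for the same comparison lists 132 genes, the lowest of them at a log2 fold change of 1.501. Of the 43 channel genes, 0 are among them. The list holds no gene with a negative fold change, so the absence of the members that fell says nothing about them.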

How the data were processed

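RNA from 3 DMSO and 3 forskolin libraries was extracted with Trizol and chloroform, per the labels. The authors deposited counts of reads per gene symbol, 1 column per library; the submitters' processing notes name Salmon, DESeq and the build GRCm38, without roles or versions, and the strand setting and annotation are not given in the sources used here. A second table by the authors holds, per the file headers, a signal (the mean normalised count), a log2 fold change with its error, a test score and a p-value; it was used only to look up the members.

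Genes with at least 10 counts in enough libraries and 15 in total (filterByExpr) were fitted in edgeR 4.0.16 (R 4.3.3) with TMM factors and the group as the only term, glmQLFit and glmQLFTest, and Benjamini-Hochberg adjustment across all of them, threshold 0.05. CPM are counts over the TMM-scaled library size; log2 values for components used a prior count of 2. Transcript length, GC content and positions came from GENCODE M21 (GRCm38), matched by symbol. The GC trend was removed with a lowess curve per library (span 0.3) passed as offsets. The alternatives were DESeq2 1.42.0, limma 3.58.1 voom with library quality weights, RLE factors, library size alone, no filter, a mean CPM of at least 1, GC removal, leaving out each library, and GC removal without library 6. The code was tested on simulated counts. The members, lists and tests were chosen with earlier results of these data known. Results for some members are not reported here. Values per library are given for those called in the main fit, in the fit with the GC trend removed or without library 6, the 4 largest changes in each direction (mean count 20 or more), the most abundant of each class, Hcn2, Hcn3, Hcn4, Cacna1c and Cacna1d.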

Additional observations from a re-analysis of the deposited data

How the results depend on the processing

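Against 4 members lower and 0 higher, DESeq2 gave 8 and 1, quality weights 21 and 1, RLE factors 2 and 0, GC removal 0 and 0, and GC removal without library 6 gave 17 and 1; leaving out 1 library gave 0 to 22 lower and 0 to 1 higher. The 5 fits that each left out a library other than 6 gave 0 lower, while the fit without library 6, of the same number of libraries, gave 22; the cause of these shifts was not tested. Cacna1g and Cacng8 were the 2 genes that passed with RLE factors.

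Signs that turned were as follows, as log2 fold changes. With GC removed, Cacna2d1 was -0.313, Cacng5 0.00633, Cacng8 0.0617, Scn1a -0.112, Scn3a -0.17 and Hcn2 0.0365. With GC removed and library 6 left out, Cacna2d1 was -0.634, Cacnb4 -0.00582, Scn1a -0.518 and Scn3a -0.321. With quality weights, Cacna2d1 was -0.0927 and Scn1a -0.162. On library size alone, which moved the median of all genes from 0.021 to -0.085, Cacna2d1 was -0.0715, Scn3a -0.000498 and Scn4b -0.0764. Leaving out 1 library gave -0.225 to 0.313 for Cacna2d1, -0.601 to 0.00442 for Cacna2d3, -0.492 to 0.0504 for Cacna2d4, -0.209 to 0.0872 for Cacng5, -0.294 to 0.324 for Scn1a, -0.00448 to 0.301 for Scn3a and -0.193 to 0.269 for Scn4b. Of 474 values of 34 single genes under an alternative, 367 kept their direction and their side of the threshold.

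No paired analysis was possible because the library numbers run from 1 to 6 across both groups and none is shared. Depth limited the 7 genes that were not tested. The labels give no batch.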
